A study of Mus musculus with 11 samples.

Results

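The genes described here are 10 enzymes or enzyme partners of arachidonate release, leukotriene synthesis and breakdown, and epoxide hydrolysis: Pla2g4a, Alox5, Alox5ap, Lta4h, Alox12, Alox15, Cyp4f18, Cyp4f13, Ephx1 and Ephx2. They were taken by name, as enzymes of this pathway, with earlier results of these data known, so shares of them set against all genes are a description. All 10 are among the 22196 genes of the listed transcripts, and each had reads. RNA from whole inguinal mammary glands was sequenced in 11 libraries. The 6 libraries titled Knockout are labelled Tsc1-fl/fl; Adipoq-Cre-Tg/+, and the 5 titled Wild-Type are labelled Tsc1-fl/fl; Adipoq-Cre-+/+, so both groups carry the floxed Tsc1 alleles and differ by the Cre transgene. All mice received normal chow, the glands were taken 16 days after delivery, and the samples are marked PND16.5 for the postnatal day. The Adipoq promoter drives Cre in adipocytes, so other cells of the gland are not the target of the deletion. The labels do not say outright that each library came from a separate animal, and p-values then measure only the spread between these libraries.

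Arachidonate is held in membrane phospholipids and is set free by phospholipases A2, above all by the calcium-dependent cytosolic enzyme that Pla2g4a encodes. Lipoxygenases and their partner proteins turn the free acid into leukotrienes and hydroxy fatty acids, Cyp4f enzymes hydroxylate the end of the chain of leukotriene B4 and related lipids, and Cyp2c and Cyp2j enzymes make epoxides that epoxide hydrolases open to diols. Leukotriene synthesis is known above all from neutrophils, mast cells and macrophages, whereas soluble epoxide hydrolase and arachidonate reacylation are found in many tissues, adipose tissue included.

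All reads of Pla2g4a went to a pair of its listed transcripts, which differ only at the start of the coding sequence, and their first coding bases are shown because the reads of 1 gene were split between them. The third listed transcript, Pla2g4a-206 of 447 bases, was at 0 TPM in every library. The bases in capitals are those that the transcripts do not share, 33 in Pla2g4a-201 and 9 in Pla2g4a-202, followed by 21 shared bases in lower case.
Pla2g4a-201: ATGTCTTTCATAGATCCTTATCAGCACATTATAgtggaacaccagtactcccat
Pla2g4a-202: ATGTTTCTGgtggaacaccagtactcccat
In GRCm38 the differing bases lie at chr1:149932658-149932690 and chr1:149922244-149922252 on the minus strand, inside the gene at chr1:149829618-149961290. RefSeq (GRCm38.p6) gives the promoter of each start, 250 bases before to 50 bases after it, and they are shown because each transcript has its own.
Pla2g4a upstream promoter, chr1:149961241-149961540, minus strand: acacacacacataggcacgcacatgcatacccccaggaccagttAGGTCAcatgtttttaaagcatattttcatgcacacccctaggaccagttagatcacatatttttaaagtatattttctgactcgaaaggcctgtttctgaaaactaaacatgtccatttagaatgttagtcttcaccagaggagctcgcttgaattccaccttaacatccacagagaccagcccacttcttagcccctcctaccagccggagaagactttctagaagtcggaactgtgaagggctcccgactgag
Pla2g4a internal promoter, chr1:149922390-149922689, minus strand: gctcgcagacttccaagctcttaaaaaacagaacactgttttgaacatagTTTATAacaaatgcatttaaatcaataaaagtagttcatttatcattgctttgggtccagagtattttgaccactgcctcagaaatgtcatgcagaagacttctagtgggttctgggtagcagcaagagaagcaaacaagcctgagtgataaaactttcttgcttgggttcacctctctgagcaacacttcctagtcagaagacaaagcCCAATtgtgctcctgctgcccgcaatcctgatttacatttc
Capitals mark matches to the 8 motifs searched on both strands, which were TATAAA for the TATA box, TGANTCA for AP-1, GAGGAA for PU.1 and other ETS factors, GGGCGG for Sp1, CCAAT for the CCAAT box, TTGCNNAA for C/EBP, TTCNNNGAA for STAT factors and AGGTCA for nuclear receptors. The upstream window held AGGTCA, which 16.3% of the 32851 promoters of this length hold. The internal window held TATAAA on the opposite strand, found in 13.6% of promoters, and CCAAT, found in 37.4%. These are matches of letters and not sites shown to be bound.

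Cyp4f18 and Cyp4f13 belong to a family of similar genes, and the stretch below is shown because reads inside it could not be placed in 1 gene alone. The coding sequences of Cyp4f18-201 and Cyp4f13-201 were identical at 76.7% of 1572 aligned bases, and their longest shared run of 40 bases spans bases 1394 to 1433 of Cyp4f18-201.
Shared by Cyp4f18-201 and Cyp4f13-201: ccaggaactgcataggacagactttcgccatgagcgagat
Of the words of 31 bases in the listed Cyp4f18 transcripts, 72 of 1574 (4.57%) also occur in other Cyp4f genes, as do 168 of 1658 (10.1%) in Cyp4f13. The other 8 genes share no such word with any gene, on either strand. The promoter of Cyp4f18 is shown because this gene was the one of the 10 whose Knockout values all lay below the Wild-Type values. It held the ETS letters, found in 28.3% of promoters, the Sp1 letters, found in 35.7%, and a pair of CCAAT matches, each on the opposite strand.
Cyp4f18 promoter, chr8:72009577-72009876, minus strand: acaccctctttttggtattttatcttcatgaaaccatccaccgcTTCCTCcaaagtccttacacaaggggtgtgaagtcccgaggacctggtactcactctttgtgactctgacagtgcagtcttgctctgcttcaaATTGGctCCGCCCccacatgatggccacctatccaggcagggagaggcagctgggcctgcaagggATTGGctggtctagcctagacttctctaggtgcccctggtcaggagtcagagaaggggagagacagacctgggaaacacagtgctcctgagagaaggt
Promoters of 7 of the 10 genes matched the RefSeq table, and those of Ephx2, Alox5ap and Alox15 were not used here.

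Libraries held 25817975 to 37894237 estimated reads, and levels below are given as CPM, the reads of a gene scaled to a common library size with TMM factors. The glands were milk-secreting, with summed casein, whey protein and luminal keratin markers between 342100 and 478900 CPM in the Knockout glands against 423800 to 595700 CPM in the Wild-Type glands. Tsc1 itself was between 8.31 and 11.9 CPM in the Knockout glands against 9.55 to 12.2 CPM in the Wild-Type glands, overlapping ranges that do not check the labels in RNA from all cells of the gland. In such bulk tissue, fewer cells of a type and less RNA per cell cannot be told apart. Adipoq was between 42.0 and 58.3 CPM in the Knockout glands against 29.5 to 43.3 CPM in the Wild-Type glands, and 10 of 12 adipocyte markers were higher in Knockout, 6 of them at an unadjusted p under 0.05, beside 12.4% of all tested genes, and none past the adjusted threshold in edgeR. DESeq2 put 4 of them past its threshold, which were Cfd (adjusted p = 0.00494), Plin4 (0.025), Fabp4 (0.0399) and Adipoq (0.0498). Marker sums of B cells lay between 1.07 and 18.3 CPM in Knockout but spread over 2.31 to 101.6 CPM in Wild-Type, and all 5 tested B cell markers were lower in Knockout at an unadjusted p under 0.05, none past the adjusted threshold in edgeR or in DESeq2, although with transcript length factors DESeq2 called Cd37 (adjusted p = 0.0232). Knockout 1 stood apart by skeletal muscle markers, which summed to 2074 CPM there, and Knockout 2 was next at 311 CPM. Wild-Type libraries reached no more than 199 CPM, and the lowest Knockout library was at 2.77 CPM. All 7 of these markers were higher in Knockout, 0 of them at an unadjusted p under 0.05 in edgeR.

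Per length of transcript, in TPM as the files give them, Ephx1 stood highest of the 10 genes with a mean of 7.93 TPM over the 11 libraries. It was followed by Alox5ap at 6.82, Lta4h at 4.11, Cyp4f13 at 3.24, Ephx2 at 2.97, Pla2g4a at 1.46, Cyp4f18 at 0.597, Alox12 at 0.154, Alox5 at 0.0393 and Alox15 at 0.0262 TPM. Between neighbours in this order the ranges over libraries overlapped, except that every library had more Alox12 (0.0664 TPM or more) than any had Alox5 (0.0624 TPM or less). The place of Alox5ap rests on its 222-base transcript Alox5ap-203, which lies wholly inside the 486-base Alox5ap-201 and was given 60.4% of its TPM in Knockout and 57.8% in Wild-Type on average. By CPM, which does not divide by length, Alox5ap was seventh of the 10.

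**Figure D1:**
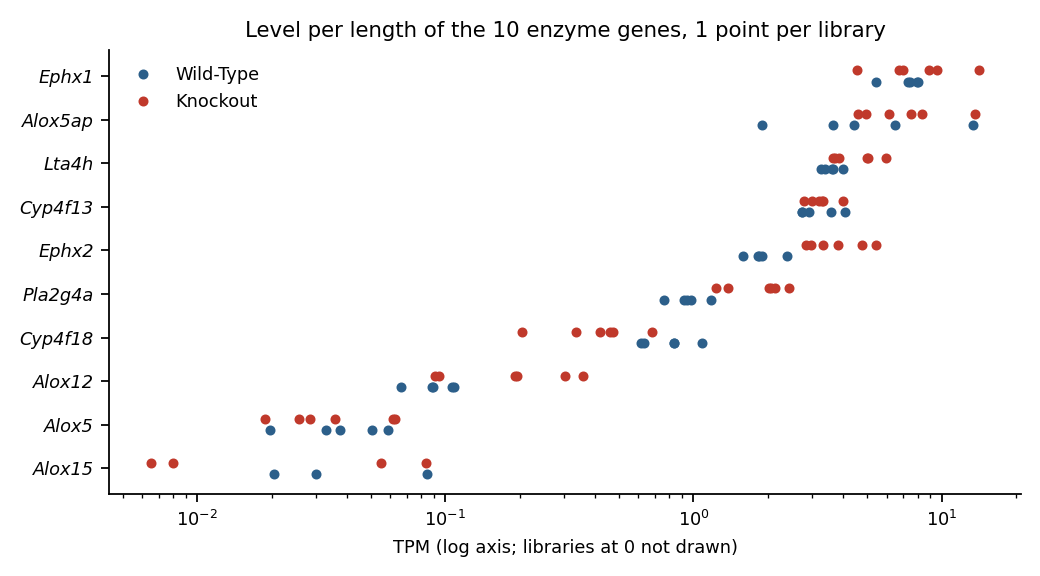
Level of each gene in TPM on a log axis, 1 point per library, with Wild-Type (n = 5) in blue and Knockout (n = 6) in red. The 10 genes span from a mean of 7.93 TPM for Ephx1 to 0.0262 TPM for Alox15, and Alox5 and Alox15 lie at the bottom in both genotypes.

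Of the 10 genes, 8 had enough reads to be tested between genotypes and Alox5 and Alox15 did not. None of the 8 passed an adjusted p of 0.05 in edgeR's quasi-likelihood test over 12716 genes, where 0.055% of all tested genes did. At an unadjusted p under 0.05 stood 4 of the 8, Pla2g4a, Cyp4f18, Ephx2 and Alox12, against 12.4% of all tested genes. In 3 of them, Pla2g4a, Cyp4f18 and Ephx2, the libraries of the genotypes did not overlap, which held for 1.32% of all tested genes. DESeq2's Wald test put these 3 past its adjusted threshold, as it did 1.09% of the 13395 genes to which it gave an adjusted p, and with transcript length factors it called the same number, 3, against 0.999% of 13720 genes. Among the 8, 5 were higher and 3 lower in Knockout, with a median log2 ratio of 0.08 against -0.01 over all tested genes and a median size of 0.44 against 0.13. Over the omission of each library in turn, the log2 ratio stayed between 0.67 and 0.83 for Pla2g4a, between -1.24 and -1.02 for Cyp4f18 and between 0.66 and 0.84 for Ephx2. Log2 ratios below are Knockout over Wild-Type as edgeR fitted them, with the standard error (SE).

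**Figure D2:**
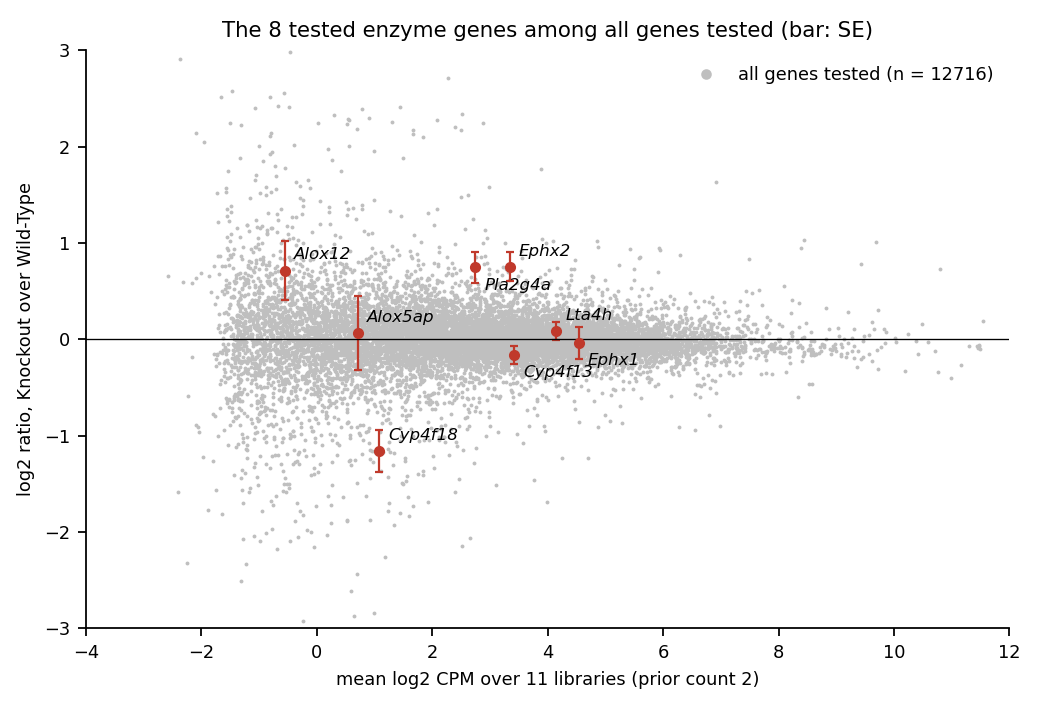
Log2 ratio of Knockout against Wild-Type (y axis) by mean log2 CPM over the 11 libraries (x axis) for all 12716 tested genes in grey and the 8 tested enzyme genes in red, with SE bars. Pla2g4a and Ephx2 lie near 0.75, Cyp4f18 at -1.16, and Lta4h, Alox5ap, Ephx1 and Cyp4f13 between -0.16 and 0.08.

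The comparison of release addresses whether the gland without adipocyte Tsc1 differs in the enzyme that frees arachidonate. Pla2g4a was read at 5.46, 5.39, 4.59, 4.01 and 6.00 CPM in Wild-Type libraries 1 to 5. In Knockout it ran from 6.06 CPM at the lowest over a median of 8.60 to 10.5 CPM at the highest. Every Knockout library was above every Wild-Type library, although the lowest Knockout and the highest Wild-Type library nearly touched. The means were 8.53 ± 1.77 CPM (SD, n = 6) in Knockout against 5.09 ± 0.788 CPM (SD, n = 5) in Wild-Type, which edgeR fitted as a log2 ratio of 0.75 with an SE of 0.16. It missed the threshold in edgeR (adjusted p = 0.137, unadjusted p = 0.00041) and passed it in DESeq2 (log2 ratio 0.75, adjusted p = 0.00457). Each library gave 129 to 354 reads for the gene.

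In 9 of the 11 libraries all of the signal of Pla2g4a was given to Pla2g4a-201, the transcript with the longer start shown above, and Pla2g4a-202 was listed at 0 TPM. In Knockout 3 it was at 1.69 TPM beside 0.361 TPM of Pla2g4a-201, and in Wild-Type 4 at 0.917 TPM with Pla2g4a-201 listed at 0. The exchange concerned 1 library of each genotype. Because 9 to 33 bases are all that tell the transcripts apart, few reads decide the split, and only the gene's sum was compared between genotypes.

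Beside the higher values of Pla2g4a stood the adipocyte markers, whose summed level was between 1539 and 1998 CPM in the Knockout glands against 1092 to 1557 CPM in the Wild-Type glands. With the adipocyte marker score of each library as a term, the log2 ratio of Pla2g4a was 0.54 (adjusted p = 0.708 by edgeR). Fibroblast markers were higher in Knockout in 7 of 7 genes, 2 at an unadjusted p under 0.05 beside 12.4% of all tested genes, with sums of 276 to 661 CPM against 210 to 467 CPM in Wild-Type. Myoepithelial markers were also higher in 7 of 7, 1 at an unadjusted p under 0.05 beside the same share, with sums of 539 to 757 CPM against 437 to 794 CPM. None of either list passed the adjusted threshold in edgeR or DESeq2, and the part of any of these markers in the Pla2g4a result was not tested.

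Other phospholipases A2 were read as a list of 20 genes, of which 7 were tested and none passed the threshold. Of these, 6 were lower and 1 was higher in Knockout. The smallest p belonged to Pla2g4f, another cytosolic phospholipase A2, at 8.62, 6.48, 8.49, 11.97, 11.9 and 6.74 CPM in Knockout and 14.6, 14.4, 16.3, 6.86 and 13.6 CPM in Wild-Type. It was lower in Knockout except beside Wild-Type 4, which lay among the Knockout libraries, and its log2 ratio was -0.54 with an SE of 0.23 (adjusted p = 0.370 by edgeR). Pla2g6, the calcium-independent enzyme, had a log2 ratio of -0.28 with an SE of 0.13 (adjusted p = 0.403 by edgeR).

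Reacylation puts free arachidonate back into phospholipids, and all 8 genes of that list were tested, 4 higher and 4 lower, none past the threshold. Acsl3, an acyl-CoA synthetase, was between 4.98 and 7.04 CPM in the Knockout glands against 3.46 to 5.16 CPM in the Wild-Type glands, overlapping at the margin, and had a log2 ratio of 0.50 with an SE of 0.14 (adjusted p = 0.263 by edgeR). Acsl4, the synthetase that prefers arachidonate, had a log2 ratio of 0.54 with an SE of 0.25 (adjusted p = 0.403 by edgeR). The acyltransferases Mboat7 and Lpcat3 had log2 ratios of -0.06 and -0.01.

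**Figure D3:**
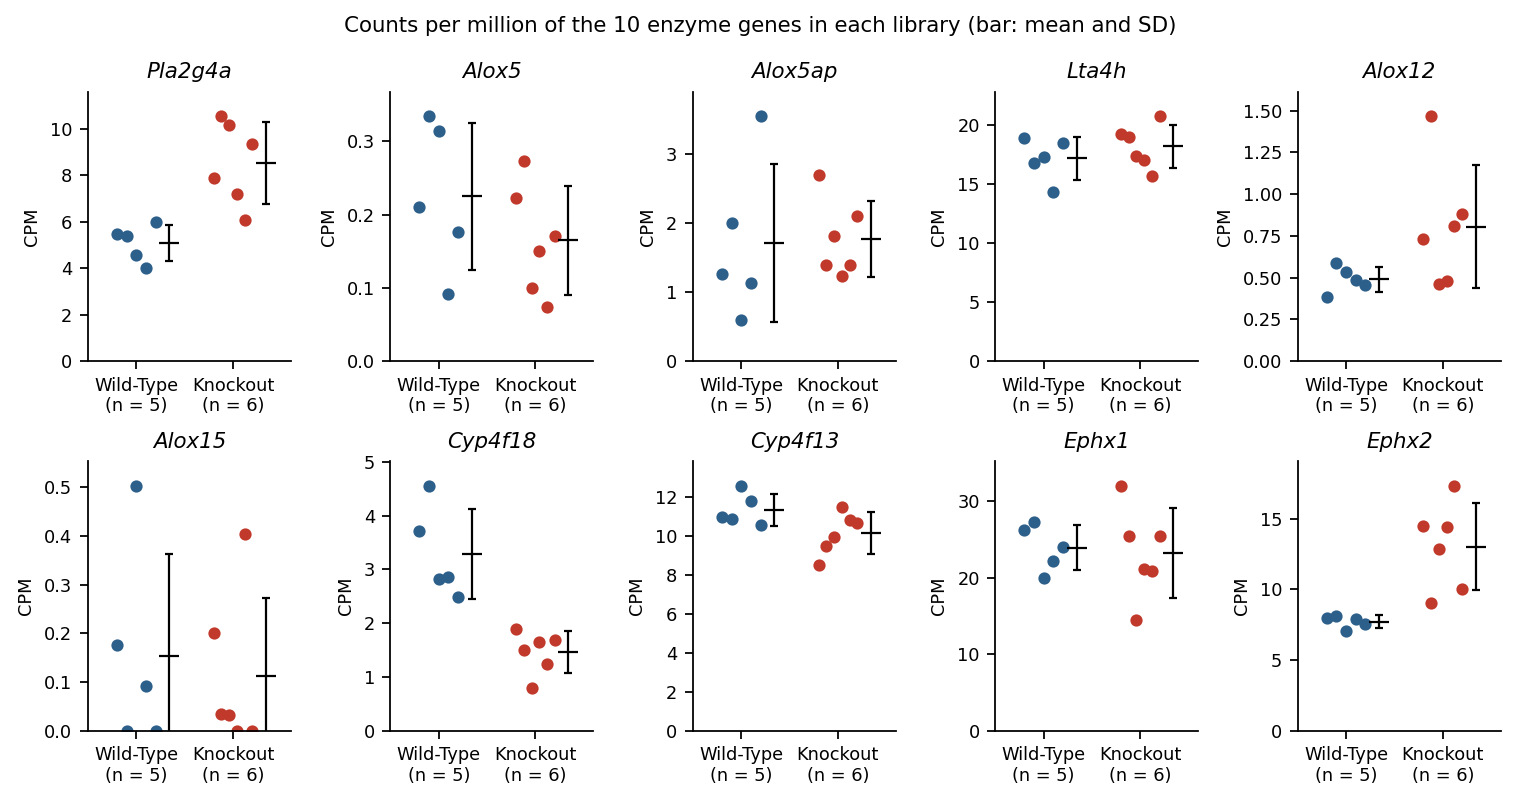
CPM of each of the 10 genes in each library, Wild-Type (n = 5) in blue and Knockout (n = 6) in red, with the mean and SD beside each group and a separate axis from 0 for each gene. Pla2g4a and Ephx2 show all Knockout points above the Wild-Type points, Cyp4f18 shows them all below, and the groups overlap in the other 7.

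The leukotriene branch begins with Alox5, the 5-lipoxygenase, and the protein that Alox5ap encodes, which presents arachidonate to it. Alox5 (chr6:116410077-116461178, minus strand) was barely detected: 10, 8, 3, 5, 2 and 6 reads in Knockout 1 to 6 and 6, 8, 10, 3 and 5 reads in Wild-Type 1 to 5. These 66 reads in all, 0.0734 to 0.334 CPM, fell below the count filter, and the groups overlapped across most of their range. Without the count filter the log2 ratio was -0.41 with an SE of 0.45 (adjusted p = 0.722 by edgeR), and DESeq2 gave -0.41 with an SE of 0.54 (adjusted p = 0.821).

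Alox5ap (chr5:149264767-149288153, plus strand), at 1.88 TPM or more, was above Alox5 in every library and scattered widely, from 1.23 CPM at the lowest over a median of 1.61 to 2.69 CPM at the highest in Knockout. In Wild-Type it was at 1.26, 2.00, 0.597, 1.12 and 3.54 CPM, so that Wild-Type held both the lowest and the highest library. The log2 ratio was 0.07 with an SE of 0.38 (adjusted p = 0.960 by edgeR), and its sign turned when Knockout 1, Wild-Type 1, Wild-Type 3 or Wild-Type 4 was left out, with a range of -0.15 to 0.53 over single omissions. With the B cell score of each library as a term it was 0.90 (adjusted p = 0.375 by edgeR). Wild-Type 5, the highest in Alox5ap, also had the highest B cell sum, 101.6 CPM. Its sums of T cell markers (31.5 CPM), dendritic cell markers (16.95 CPM) and eosinophil markers (1.05 CPM) were the highest of the libraries too. The part of any of these cells in the Alox5ap values was not tested. The spread of Alox5ap was 67.1% of the mean in Wild-Type and 31.1% in Knockout.

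Lta4h (chr10:93453411-93484875, plus strand) encodes the hydrolase that makes leukotriene B4 from leukotriene A4 and also acts as an aminopeptidase. It was among the steadiest of the genes, at 15.7 CPM at the lowest, 18.2 at the median and 20.8 at the highest in Knockout, and at 19.0, 16.8, 17.3, 14.4 and 18.5 CPM in Wild-Type. Knockout 1, Knockout 2 and Knockout 6 lay above all Wild-Type libraries and Wild-Type 4 below all Knockout libraries, while the others overlapped, and the log2 ratio was 0.08 with an SE of 0.09 (adjusted p = 0.748 by edgeR). Of the 3 genes of leukotriene B4 synthesis, none was shown to differ, and the enzyme that starts it was near the limit of detection.

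Synthesis and breakdown of cysteinyl leukotrienes were followed in 9 genes, of which 7 were tested, 5 higher and 2 lower, none past the threshold. Ltc4s, the leukotriene C4 synthase, was at 0.484 to 1.40 CPM and had a log2 ratio of -0.30 with an SE of 0.28 (adjusted p = 0.688 by edgeR). Ggt5, which cleaves leukotriene C4, had the smallest p of the list and a log2 ratio of 0.35 with an SE of 0.22 (adjusted p = 0.537 by edgeR), which was 0.16 with transcript length offsets and 0.77 with the B cell score as a term. Of 8 receptor genes, 5 were tested, 1 higher and 4 lower. Cmklr1, a receptor for chemerin and resolvin E1, was between 3.34 and 4.82 CPM in the Knockout glands against 2.13 to 3.43 CPM in the Wild-Type glands, and only Wild-Type 1 reached the Knockout range (log2 ratio 0.49 with an SE of 0.15, edgeR adjusted p = 0.274). Ltb4r1, the high-affinity leukotriene B4 receptor, had a log2 ratio of -0.37 with an SE of 0.25 (adjusted p = 0.578 by edgeR).

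Markers of the cells known to make leukotrienes were read in both genotypes. Neutrophil markers summed to between 3.34 and 8.88 CPM in Knockout against 2.98 to 6.10 CPM in Wild-Type, and 3 of 8 were tested. Of the 3, 2 were higher and 1 lower in Knockout, and 1 was at an unadjusted p under 0.05, beside 12.4% of all tested genes. That was S100a8, with a log2 ratio of 1.09 and an SE of 0.44 (adjusted p = 0.360, unadjusted p = 0.0305 by edgeR), while Csf3r had -0.34. Mast cell markers summed to 1.57 to 3.34 and 1.04 to 5.14 CPM, and macrophage markers to 75.2 to 120.0 and 89.1 to 120.0 CPM. Eosinophil markers summed to 1.05 CPM at most, and Ccr3 had no read in any library. None of these sums separated the genotypes.

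The other lipoxygenases make hydroperoxy fatty acids from arachidonate, Alox12 being the platelet type and Alox15 the leukocyte type in mouse. Alox12 (chr11:70241457-70255353, minus strand) was at 0.385, 0.585, 0.534, 0.486 and 0.456 CPM in Wild-Type libraries 1 to 5, and from 0.462 over a median of 0.770 to 1.47 CPM in Knockout. Knockout 2 stood highest, Knockout 3 and Knockout 4 lay among the Wild-Type libraries, and the groups overlapped. The log2 ratio was 0.71 with an SE of 0.31 (adjusted p = 0.374 by edgeR, unadjusted p = 0.0369), and 0.47 without Knockout 2.

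Knockout 2 was also the library with the highest sum of epidermal markers, 31.7 CPM against 0.822 to 7.97 CPM in the other Knockout and 1.13 to 5.23 CPM in the Wild-Type libraries. Aloxe3, a lipoxygenase of the epidermis and the one tested gene among 4 other lipoxygenases, was highest in the same library at 1.23 CPM, and its log2 ratio of 0.26 with an SE of 0.44 (adjusted p = 0.840 by edgeR) was -0.17 without it. Platelet markers summed to between 2.21 and 4.88 CPM in Knockout against 2.07 to 3.64 CPM in Wild-Type, with Knockout 2 highest. The part of either cell source in Alox12 was not tested.

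Alox15 (chr11:70344152-70352031, minus strand) was listed at 0 reads in Knockout 4, Knockout 6, Wild-Type 2 and Wild-Type 5, where a count of 0 allows a level of up to 3 reads, which is 0.0854 to 0.125 CPM in these 4 libraries. Its reads were 9, 1, 1, 0, 11 and 0 in Knockout 1 to 6 and 5, 0, 16, 3 and 0 in Wild-Type 1 to 5, 46 in all. Both genotypes held libraries at 0 and libraries near the top, and Alox15 was not tested. Intervals and floors of this kind cover counting error only.

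Breakdown of leukotriene B4 in mouse neutrophils runs through Cyp4f18, a fatty acid hydroxylase of the cytochrome P450 family. Cyp4f18 (chr8:71988482-72009626, minus strand) was at 3.71, 4.55, 2.83, 2.85 and 2.49 CPM in Wild-Type 1 to 5. In Knockout it was at 0.793 CPM at the lowest, 1.58 at the median and 1.89 at the highest. Every Knockout library was below every Wild-Type library, with a gap between the groups wider than that of Pla2g4a. The means were 1.46 ± 0.390 CPM (SD, n = 6) and 3.29 ± 0.839 CPM (SD, n = 5), 2.23-fold lower in Knockout, or a log2 ratio of -1.16 with an SE of 0.22. It missed the threshold in edgeR (adjusted p = 0.112, unadjusted p = 0.000176) and passed it in DESeq2 (log2 ratio -1.15, adjusted p = 0.000819). Each library gave 24 to 109 reads.

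All reads of Cyp4f18 were given to Cyp4f18-201. On the opposite strand the gene overlaps Zfp961, which was between 1.48 and 2.46 CPM in the Knockout glands against 1.93 to 2.37 CPM in the Wild-Type glands, with no shared word of 31 bases. The B cell markers given above are also lower in Knockout, and Cyp4f18 is set beside them by library. All 5 tested T cell markers were lower too, 1 at an unadjusted p under 0.05 beside 12.4% of all tested genes and none past the adjusted threshold in edgeR or DESeq2, with sums between 1.501 and 9.42 CPM in Knockout against 1.75 to 31.5 CPM in Wild-Type. Wild-Type 1 and Wild-Type 3 had B cell sums of 2.31 and 5.47 CPM, inside the Knockout range, and Cyp4f18 at 3.71 and 2.83 CPM, above all Knockout libraries. Knockout 1 had the highest B cell sum of its genotype, 18.3 CPM, and Cyp4f18 at 1.89 CPM, below all Wild-Type libraries. With the B cell score of each library as a term the log2 ratio was -1.05 (adjusted p = 0.169 by edgeR), and with the macrophage score -1.18 (adjusted p = 0.0579 by edgeR). The part of B cells, T cells or other leukocytes in the Cyp4f18 result was not tested.

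**Figure D4:**
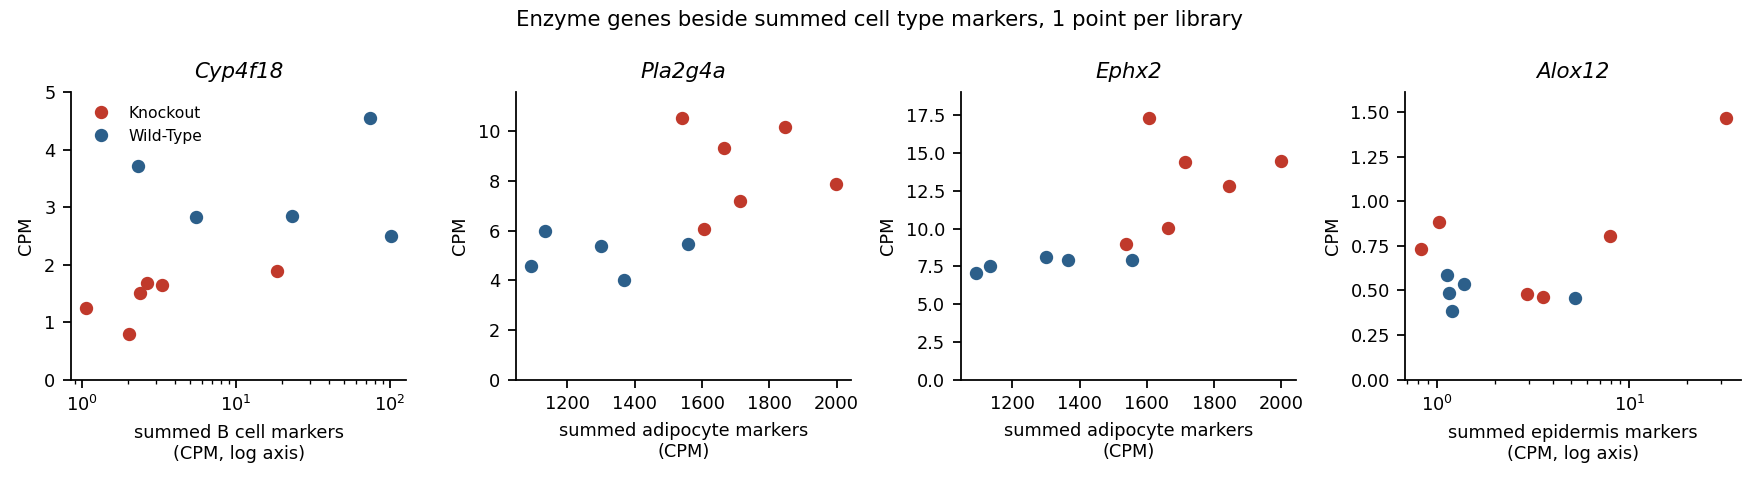
CPM of 4 enzyme genes (y axis, from 0) beside the summed CPM of cell type markers (x axis, a log axis for B cell and epidermis), 1 point per library, Wild-Type (n = 5) in blue and Knockout (n = 6) in red. In the Cyp4f18 panel the Wild-Type points lie above the Knockout points, the Knockout glands lie to the upper right for Pla2g4a and Ephx2, and the highest Alox12 value sits in the library with 31.7 CPM of epidermal markers.

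Cyp4f13 (chr17:32924688-32947402, minus strand), a broader fatty acid hydroxylase of the same family, did not separate the genotypes. It was at 8.51 CPM at the lowest, 10.3 at the median and 11.5 at the highest in Knockout, and at 11, 10.9, 12.6, 11.8 and 10.6 CPM in Wild-Type. The groups overlapped, with Knockout on the lower side, and the log2 ratio was -0.16 with an SE of 0.09 (adjusted p = 0.480 by edgeR). Of 15 further Cyp4f and Cyp4a genes, 7 had no read and 2 were tested, both lower and neither past the threshold. Cyp4f17 had a log2 ratio of -0.34 with an SE of 0.14 (adjusted p = 0.359 by edgeR) and Cyp4f16 one of -0.13 with an SE of 0.12 (adjusted p = 0.690 by edgeR). The 3 family members other than Cyp4f18 had smaller measured differences, and whether Cyp4f18 differed from them was not tested.

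The epoxide branch is opened by epoxygenases and closed by Ephx1, the microsomal hydrolase, and Ephx2, the soluble hydrolase that acts on epoxides of arachidonate. Ephx2 (chr14:66084374-66124500, minus strand) was at 7.95, 8.14, 7.07, 7.93 and 7.55 CPM in Wild-Type 1 to 5. In Knockout it was at 9.004 CPM at the lowest, 13.6 at the median and 17.3 at the highest. All Knockout libraries were above all Wild-Type libraries, and Knockout spread far more, with SDs of 23.8% of the mean against 5.53%. The means were 13.02 ± 3.10 CPM (SD, n = 6) in Knockout against 7.73 ± 0.428 CPM (SD, n = 5) in Wild-Type, which edgeR fitted as a log2 ratio of 0.75 with an SE of 0.15. It missed the threshold in edgeR (adjusted p = 0.128, unadjusted p = 0.000268) and passed it in DESeq2 (log2 ratio 0.76, adjusted p = 0.00213).

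Leaving out Knockout 2, which had the lowest Ephx2 of its genotype, put Ephx2 past the edgeR threshold, with a log2 ratio of 0.84 (adjusted p = 0.024), and no other single omission did. With the adipocyte score as a term the log2 ratio was 0.90 (adjusted p = 0.213 by edgeR). The adipocyte sums of the genotypes overlapped in 1 pair of libraries, Knockout 2 at 1539 CPM and Wild-Type 1 at 1557 CPM. The score, a mean of log2 values over the markers, ordered the libraries otherwise and overlapped more. It ran from -0.18 in Knockout 5 to 0.40 in Knockout 2, and from -0.32 in Wild-Type 3 to 0.086 in Wild-Type 1. The part of adipocytes in the Ephx2 result was not tested.

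Nearly all reads of Ephx2 were shared between Ephx2-201, of 1665 coding bases, and Ephx2-203, of 1467 bases. Ephx2-203 lies wholly inside Ephx2-201 and starts further along the gene. Ephx2-202 was given 5.39 reads in all, in Knockout 3 alone, where it was at 0.0456 TPM or 1.37% of the TPM of the gene. Ephx2-203 was given 47.5% of the TPM in Knockout and 30.2% in Wild-Type on average, from 0 to 63.4% over libraries. Since no bases belong to Ephx2-203 alone, the split is an estimate with no read of its own, and it was listed at 0 TPM in Wild-Type 2 and Wild-Type 5. With transcript lengths taken into account, the log2 ratio of the gene was 0.79 in edgeR (adjusted p = 0.163).

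Ephx1 (chr1:180976210-181020904, minus strand) was the highest of the 10 genes in TPM and did not separate the genotypes. It was at 14.4 CPM at the lowest, 23.3 at the median and 32.0 at the highest in Knockout, and at 26.3, 27.3, 19.95, 22.2 and 24.01 CPM in Wild-Type. Knockout held both the lowest and the highest library, and the log2 ratio was -0.04 with an SE of 0.17 (adjusted p = 0.944 by edgeR). Its sign turned with library-size scaling alone (0.17), with the B cell score as a term (0.11) and without Knockout 3 or Wild-Type 2. The other epoxide hydrolases Ephx3 and Ephx4 were too low to test.

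Of 23 Cyp2c and Cyp2j epoxygenase genes, 15 had no read and 2 were tested, both higher in Knockout. Cyp2j9 was at 0.315, 0.334, 0.503, 0.425 and 0.491 CPM in Wild-Type and from 0.740 to 1.33 CPM in Knockout. It was the only one of the 32 tested genes outside the 10 whose groups did not overlap, beside 1.32% of all tested genes. All Knockout libraries were higher. Each library gave 8 to 60 reads, with 61 in all over the Wild-Type libraries, and words shared with other Cyp2j genes were not counted for Cyp2j9. Its log2 ratio was 1.17 with an SE of 0.23, past the threshold in DESeq2 (adjusted p = 0.017) and not in edgeR (adjusted p = 0.128). Cyp2j6, at 5.50 to 9.07 CPM, had a log2 ratio of 0.11 with an SE of 0.13 (adjusted p = 0.779 by edgeR).

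Across the 8 lists of other pathway genes, 89 genes in all, 29 had no read and 32 were tested, 14 higher and 18 lower in Knockout. None passed the edgeR threshold, and 7 were at an unadjusted p under 0.05 (4 higher and 3 lower), beside 12.4% of all tested genes. DESeq2 called Cyp2j9 alone, beside 1.09% of the genes to which it gave an adjusted p. The authors' deposited gene table holds another scaling of the same 11 libraries, so it is no independent check of the direction. Its log2 ratios of Knockout over Wild-Type means were 0.74 for Pla2g4a, -1.17 for Cyp4f18 and 0.80 for Ephx2, the 3 genes without overlap.

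**Figure D5:**
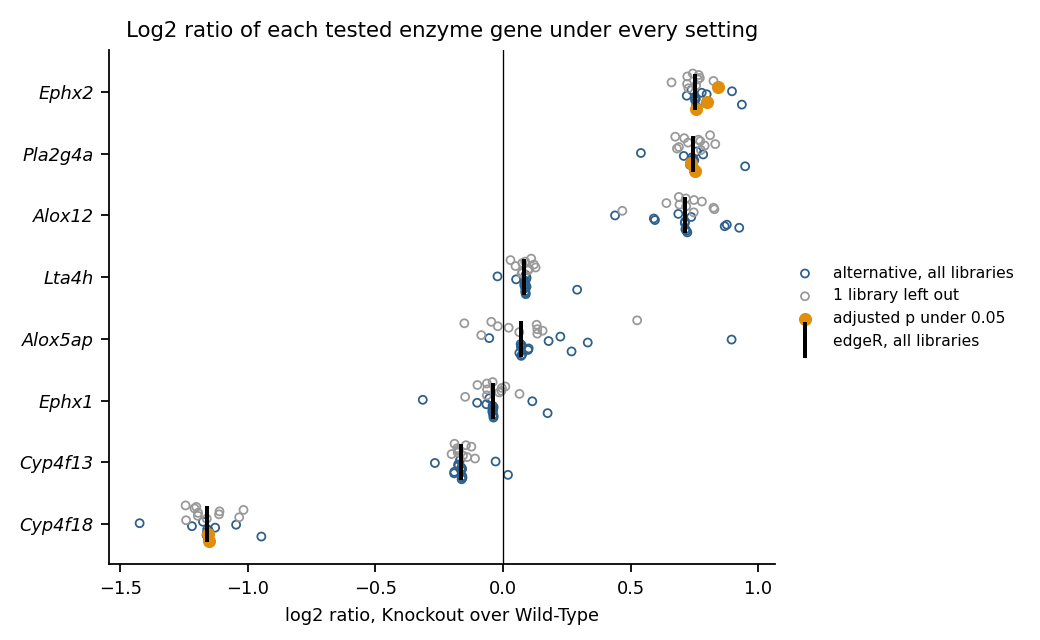
Log2 ratio of Knockout against Wild-Type (x axis) for each of the 8 tested genes under edgeR with all libraries (black bar), each alternative with all libraries (blue circles) and each omission of 1 library (grey circles), with orange for an adjusted p under 0.05. Cyp4f18, Pla2g4a, Ephx2 and Alox12 keep their sign throughout, and orange points occur for Cyp4f18, Pla2g4a and Ephx2 only.

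Within genotypes, the genes most like each of the 8 tested genes were ranked by Pearson's r of log2 CPM over the 11 libraries after the mean of each genotype was subtracted. These r values describe libraries that share depth and tissue makeup, and they carry no test. P2ry6 (0.919) and Ms4a6c (0.859) were among the genes most like Cyp4f18. Ephx1 moved most like Fcer1g (0.934), P2ry6 (0.931) and Abcc3 (0.925), sharing P2ry6 with Cyp4f18. Alox5ap went with Otulinl (0.941), Pfn1 (0.937) and Lcp2 (0.932), and Lta4h with Il1b (0.907), Gpr65 (0.903) and Ergic3 (0.896). Pla2g4a went with Mrps15 (0.971), Fgfrl1 (0.950) and Ctnnbip1 (0.950), and Ephx2 with Cog8 (0.950), Sfxn2 (0.938) and Keap1 (0.933). Alox12 was closest to Soga1 (0.948), Map3k14 (0.914) and Klhl18 (0.913), and Cyp4f13 to Mlph (0.908), Zfp512b (0.888) and Zfp956 (0.888).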

How the data were processed

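Total RNA of 11 inguinal mammary glands was sequenced from directional libraries, per the labels' protocols. The deposited files hold the authors' estimated counts and TPM per transcript from Salmon 1.3.0 on GRCm38.p6, per the submitters' processing notes, whose lists also name DESeq2 1.28.1; index and options are not given in the sources used here. Of the listed transcripts, 93.9% have the length of the coding sequence, so reads in untranslated ends were mostly not counted. A deposited gene table holds the authors' DESeq2-normalized signal per gene, fractional and not raw counts, and was used for 3 ratios only.

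Transcripts were summed to genes through the annotation; 752 of 58204 transcripts matched no gene and held 0.195% to 0.265% of the estimated reads. Gene sums were rounded, filtered with filterByExpr, which left 12716 genes, scaled with TMM and tested with the quasi-likelihood F test of edgeR 4.0.16 (R 4.3.3, robust, genotype as the only term), with Benjamini-Hochberg adjustment over all tested genes and a threshold of 0.05. DESeq2 1.42.0 and limma-voom (limma 3.58.1) were alternatives, as were other scalings, filters, length offsets, marker scores as terms, the replicate number as a block and the omission of each library; the scripts were tested on simulated data. The common biological coefficient of variation was 24.1%. Named from each other pathway list is the tested gene with the smallest p, and some further genes were chosen after their values were seen. The genes most like a member are the 3 tested genes of mean CPM 1 or more with the highest within-genotype r; 1 of them is not reported here. Members and lists were chosen with earlier results of these data known. Shared sequence was counted in words of 31 bases, and promoters came from RefSeq (GRCm38.p6).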

Additional observations from a re-analysis of the deposited data

Results flagged for a closer look

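Among 34 sets of values of 1 gene in 1 genotype, 2 held a library far from the others by Dixon's test, where chance alone gives about 1.7, or 1 in 20. Aloxe3 was at 1.23 CPM in Knockout 2 and at 0.220 to 0.541 CPM in the other Knockout libraries, and Knockout 2 also had the highest sum of epidermal markers, 31.7 CPM. Cmklr1 was at 4.82 CPM in Knockout 1 and at 3.34 to 3.77 CPM in the other Knockout libraries.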

How the results depend on the processing

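With DESeq2, which also sets its own filter and size factors, 3 of the 10 genes and 1 other pathway gene (Cyp2j9) passed the threshold, both with its own size factors and with transcript length factors; over all genes it called 146 and 137 against 7 in edgeR. The DESeq2 log2 fold changes were 0.75 for Pla2g4a (adjusted p = 0.00457), -1.15 for Cyp4f18 (adjusted p = 0.000819), 0.76 for Ephx2 (adjusted p = 0.00213) and 1.18 for Cyp2j9 (adjusted p = 0.017); with length factors they were 0.74 (adjusted p = 0.00851), -1.16 (adjusted p = 0.00145), 0.80 (adjusted p = 0.00145) and 1.18 (adjusted p = 0.0184). With limma-voom 0 of the 10 genes and 6 genes in all passed (adjusted p = 0.189, 0.153 and 0.193 for Pla2g4a, Cyp4f18 and Ephx2). Over the 14 alternatives with all libraries, or for the block replicates 1 to 5, the adjusted p ran from 0.00457 to 0.708 for Pla2g4a, from 0.000819 to 0.305 for Cyp4f18 and from 0.00145 to 0.387 for Ephx2. With library size alone, which shifts the median of all genes by 0.18, the sign turned for Cyp4f13 (0.019) and Ephx1 (0.17). With a marker score as a term it turned for Ephx1 (B cell, 0.11), Alox5ap (adipocyte, -0.054), Lta4h (adipocyte, -0.022) and Aloxe3 (adipocyte, -0.48). Over alternatives with all libraries, the log2 fold changes ran from -0.05 to 0.90 for Alox5ap, -0.31 to 0.17 for Ephx1, -0.27 to 0.02 for Cyp4f13, -0.02 to 0.29 for Lta4h, 0.44 to 0.93 for Alox12, -0.64 to -0.31 for Pla2g4f, 0.16 to 0.77 for Ggt5, 0.28 to 0.71 for Cmklr1 and -0.37 to -0.15 for Cyp4f17. With each library left out in turn, 0 to 1 of the 10 genes passed (Ephx2 without Knockout 2, adjusted p = 0.024), 0 to 28 genes passed in all, and the log2 fold changes ran from 0.66 to 0.84 for Ephx2, -0.15 to 0.53 for Alox5ap, -0.15 to 0.064 for Ephx1 and -0.17 to 0.60 for Aloxe3; 0 genes passed in all without Knockout 3 or without Knockout 6, 2 without Knockout 1 or Wild-Type 3, and 28 without Knockout 2. The cause of these changes was not tested. With CPM in place of TPM, Lta4h ranked 2, Cyp4f13 3, Ephx2 4, Pla2g4a 5, Cyp4f18 6 and Alox5ap 7, because CPM is not divided by length. Alox12, Aloxe3 and Cyp2j9 fell below the filter of CPM 1 in 5 libraries.

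The replicate numbers are shared between genotypes without a stated pairing, and libraries of the same number did not deviate together (r from -0.22 to 0.19; 1 of 5 correlated best with its own number). With the replicate block, fitted on replicates 1 to 5, the log2 fold changes were 0.71 for Pla2g4a (adjusted p = 0.567), -1.22 for Cyp4f18 (adjusted p = 0.305) and 0.80 for Ephx2 (adjusted p = 0.387), with 0 genes past the threshold.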

Other observations

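Of the 28 pairs of tested members, within-genotype correlations of log2 CPM over the 11 libraries were highest for Cyp4f18 with Ephx1 (Pearson's r 0.85, Spearman's rho 0.85) and Pla2g4a with Lta4h (0.71 and 0.61). They were lowest for Pla2g4a with Ephx2 (-0.69 and -0.67) and Cyp4f13 with Alox5ap (-0.69 and -0.80). Pla2g4a and Ephx2 were both higher in Knockout, while the Knockout libraries with more of one tended to hold less of the other. The Wild-Type libraries did not show this. In Wild-Type 1 to 5 Pla2g4a was at 5.46, 5.39, 4.59, 4.01 and 6.00 CPM beside Ephx2 at 7.95, 8.14, 7.07, 7.93 and 7.55 CPM. The libraries share tissue makeup and depth, and these values are a description without a test.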
